A study of Mus musculus with 4 samples.

Results

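The interleukin-1 system of CD45+ cells from mouse tumours was examined through 7 genes, which were chosen by name out of the 22631 genes counted. They are the ligands Il1b, Il1a and Il18, the inhibitors Il1rn and Il1r2, the inflammasome sensor Nlrp3 and the receptor chain Il1rap. All 7 were detected, and all 7 passed the filter on low counts in neutrophils and in the other myeloid cells. MC38 colon carcinoma cells had been grown for 7 days in the flank of IL-12p40-IRES-EYFP mice, reporter mice for interleukin-12 p40 that supplied every group, untreated animals too. The treated animals (aCD40) were given 5 mg/kg of an antibody that activates CD40, a costimulatory receptor on dendritic cells, macrophages and B cells, into the peritoneum, and 2 tumours were taken 2 days later (aCD40 tumour 1 and aCD40 tumour 2). The comparison was 1 tumour of an untreated mouse. Live CD45+ cells were sorted and sequenced in droplets (inDrops), where captured transcripts are counted by a molecular tag (UMI) near the 3′ end.

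Interleukin-1 alpha and interleukin-1 beta are inflammatory cytokines that signal through the receptor IL1R1 together with the accessory chain encoded by Il1rap. Interleukin-1 beta and interleukin-18 are made as precursors that caspase-1 cleaves once a sensor such as NLRP3 has assembled an inflammasome, so that RNA of these genes does not report the active cytokine. The pathway carries its own brakes. Il1rn encodes the receptor antagonist, which occupies IL1R1 without signalling, and Il1r2 encodes a decoy receptor that binds interleukin-1 but lacks a signalling domain. Neutrophils and monocytes are known sources of both the ligand and its brakes.

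In GRCm38 (GENCODE M21), Il1b (chromosome 2, 129364570 to 129371139, minus strand) and Il1a (chromosome 2, 129299610 to 129309972, minus strand) lie in the same stretch of chromosome 2, and Il1rn (24336853 to 24351494, plus strand) lies on that chromosome too. Il1r2 lies on chromosome 1 (40074079 to 40125231, plus strand), Il18 on chromosome 9 (50554827 to 50581840, plus strand), Nlrp3 on chromosome 11 (59541568 to 59566956, plus strand) and Il1rap on chromosome 16 (26581704 to 26730117, plus strand). Exons of Il1b, Il1a and Il1rap each overlap an annotated gene on the other strand (Il1bos, Gm14023 and Gm20319). Whether the authors' counting used strand is not given in the sources used here, so reads of these pairs may not be separable. The 250 bases before the RefSeq start (GRCm38.p6) are shown for both interleukin-1 genes and both brakes, because Il1b and Il1a, ligands of the same receptor, differed widely in level (11591 and 92 UMIs in neutrophils of aCD40 tumour 1) and because both brakes are set against Il1b in detail. They are chr2:129371140-129371389 (minus) for Il1b, chr2:129309973-129310222 (minus) for Il1a, chr2:24336610-24336859 (plus) for the first of 3 starts of Il1rn, and chr1:40085843-40086092 (plus) for Il1r2, whose RefSeq start lies inside the GENCODE gene.
Il1b: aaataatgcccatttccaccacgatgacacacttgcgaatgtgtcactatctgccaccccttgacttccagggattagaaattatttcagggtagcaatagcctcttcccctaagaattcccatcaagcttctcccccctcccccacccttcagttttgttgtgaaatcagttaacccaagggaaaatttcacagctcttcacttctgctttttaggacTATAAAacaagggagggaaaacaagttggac
Il1a: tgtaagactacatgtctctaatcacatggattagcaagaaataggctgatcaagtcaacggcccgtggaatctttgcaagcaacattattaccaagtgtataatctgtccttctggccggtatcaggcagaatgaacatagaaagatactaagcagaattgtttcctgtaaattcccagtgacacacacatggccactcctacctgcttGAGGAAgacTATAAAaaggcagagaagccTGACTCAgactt
Il1rn: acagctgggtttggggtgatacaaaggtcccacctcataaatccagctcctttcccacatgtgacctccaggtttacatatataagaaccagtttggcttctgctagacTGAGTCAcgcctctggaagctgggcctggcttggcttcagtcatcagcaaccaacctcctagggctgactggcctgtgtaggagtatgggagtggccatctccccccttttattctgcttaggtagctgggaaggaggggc
Il1r2: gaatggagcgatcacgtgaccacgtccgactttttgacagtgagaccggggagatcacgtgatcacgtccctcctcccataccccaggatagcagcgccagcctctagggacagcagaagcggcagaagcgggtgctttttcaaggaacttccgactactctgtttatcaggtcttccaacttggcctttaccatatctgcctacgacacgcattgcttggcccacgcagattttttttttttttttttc
Capitals mark matches, on either strand, to the NF-kB motif, TGANTCA (AP-1), TTGCNNAA (C/EBP), GAGGAA (PU.1 core), TGACGTCA (CRE) and the core of the box that binds TBP, TATAAA, which was added after the sequences were read. This last motif lay 31 to 26 bases before the start in Il1b and 32 to 27 bases before it in Il1a, and 12.4% of 32817 RefSeq windows of this length held it. Il1a also held a GAGGAA (23.3% of windows) and, 12 to 6 bases before the start, a TGANTCA (6.75% of windows). Il1rn held a TGANTCA 141 to 135 bases before the start, and the Il1r2 window held none of the motifs. NF-kB was matched in 7.25% of windows, C/EBP in 9.57% and CRE in 1.55%, and among the member windows a window of Nlrp3 held NF-kB and none held the others.

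The data held 4440 cells and 3961141 UMIs. These were 1226 cells and 1391113 UMIs in aCD40 tumour 1, 1815 cells and 1862139 UMIs in aCD40 tumour 2, and 1399 cells and 707889 UMIs in the untreated tumour, each in 4 libraries. Median depth was 979, 865 and 433 UMIs per cell in that order of tumours. Libraries shared 0 cell barcodes. By the authors' annotation neutrophils numbered 700 and 215 in the aCD40 tumours and 49 in the untreated tumour, and the class of monocytes, macrophages and dendritic cells (called other myeloid cells here) numbered 448, 1330 and 1136. All 8 neutrophil markers were present in neutrophils, with a summed level of 106627 and 69314 CPM in aCD40 tumours and 41887 CPM in the untreated tumour (CPM, UMIs per 1000000 UMIs of the class), against 2217, 1029 and 316 CPM in the other myeloid cells.

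Neutrophils carried more of all 7 members than the other myeloid cells in every tumour, although untreated Il18 rests on 1 UMI. Il1b reached 16262 CPM (exact Poisson 95% interval 15968 to 16561) in neutrophils of aCD40 tumour 1 and 20059 CPM (19396 to 20739) in those of aCD40 tumour 2, against 20837 CPM (19031 to 22768) in the untreated tumour. The untreated value thus lay at the upper end, and its interval overlapped that of aCD40 tumour 2. In the other myeloid cells Il1b stood at 2788 and 3998 CPM in aCD40 tumours and at 3334 CPM in the untreated tumour, which lay between them. Neutrophils exceeded the other myeloid cells 5.83-fold and 5.02-fold in aCD40 tumours and 6.25-fold in the untreated tumour. These are differences between annotated cell types, which were made from genes of the same cells, and they carry no test. Intervals here and below cover counting error only.

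At least 1 Il1b UMI was found in 95.9% and 92.6% of neutrophils of aCD40 tumours and in 85.7% of untreated neutrophils. After each cell had been thinned to 300 UMIs these shares were 91.0%, 91.0% and 87.8%, with 33, 15 and 8 shallower cells left out. Among other myeloid cells the thinned shares were 41.8% and 45.1% in aCD40 tumours and 49.5% in the untreated tumour, with 29, 67 and 281 cells left out; unthinned they were 60.3%, 62.8% and 57.9%. T cells, which should lack Il1b, held a UMI of it in 1 of 48 and 4 of 135 cells in aCD40 tumours (median depth 778 and 651 UMIs) and in 15 of 150 untreated cells (475.5 UMIs), and in 2.13%, 2.36% and 5.65% after thinning, which gives the background. The share of cells with a UMI was higher in neutrophils than in other myeloid cells for 7 of 7 members in all 3 tumours, with and without thinning.

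Il1a, whose precursor is active without cleavage, was far scarcer in neutrophils, with 129 and 209 CPM (92 and 36 UMIs) in aCD40 tumours and 341 CPM (8 UMIs) in the untreated tumour. Outside neutrophils, the other myeloid cells had 28.5 and 50.9 CPM in aCD40 tumours and 19.3 CPM in the untreated tumour. Both aCD40 values were thus higher there and lower in neutrophils, but the Poisson interval of the untreated neutrophils (147 to 672 CPM) overlapped those of both aCD40 tumours (104 to 158 and 146 to 289 CPM). Il18, whose product acts on T and NK cells, was the scarcest member in neutrophils, at 44.9 and 75.3 CPM in neutrophils of aCD40 tumours and 42.6 CPM (1 UMI) in the untreated tumour. Its other myeloid levels were 30.2 and 14.4 CPM in aCD40 tumours and 26.3 CPM in the untreated tumour, with the untreated value between them. Since the method counts molecules by a tag at the 3′ end, UMIs were not divided by transcript length, and ratios between genes also hold any difference in capture.

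Of the brakes, Il1rn was lower and Il1r2 higher in the neutrophils of both aCD40 tumours than in those of the untreated tumour on the CPM scale. Il1rn, the receptor antagonist, had 2509 and 2787 CPM in aCD40 neutrophils and 4432 CPM (Poisson interval 3621 to 5370) in untreated neutrophils. Its levels over libraries overlapped, with a lowest, median and highest of 2215, 2596 and 3583 CPM in the 8 aCD40 libraries and values of 1975, 4110, 4863 and 5616 CPM in the 4 untreated libraries. Il1r2, the decoy receptor, had 2336 and 3193 CPM in aCD40 neutrophils and 1406 CPM (968 to 1975) in untreated neutrophils. Its libraries ran from 2208 over a median of 2777 to 3583 CPM in aCD40 tumours, and the untreated libraries had 564, 986, 1765 and 1840 CPM. The aCD40 and untreated libraries of Il1r2 did not overlap, which held for 1 of 7 members in neutrophils and for 0 of 7 in other myeloid cells. Of all genes tested, 7.30% in neutrophils had every aCD40 library above every untreated library and 1.92% had every one below; the shares in other myeloid cells were 3.72% and 4.35%. The 4 libraries made from 1 tumour share its cells' source and count as 1 replicate.

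Both brakes were much scarcer in other myeloid cells. Il1rn had 539 and 772 CPM in aCD40 tumours and 691 CPM in the untreated tumour, which lay between. Il1r2 had 158 and 168 CPM in aCD40 tumours and 121 CPM in the untreated tumour, with overlapping Poisson intervals (128 to 193, 148 to 191 and 94.2 to 153 CPM). T cells held 139 and 56.1 CPM of Il1r2 in aCD40 tumours and 78.4 CPM in the untreated tumour, on 6 UMIs each. Il1r2 was 14.8-fold and 19.0-fold higher in neutrophils than in other myeloid cells in aCD40 tumours and 11.6-fold higher in the untreated tumour, a wider gap than for Il1rn (4.66-fold and 3.61-fold in aCD40 tumours, 6.41-fold untreated).

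**Figure D1:**
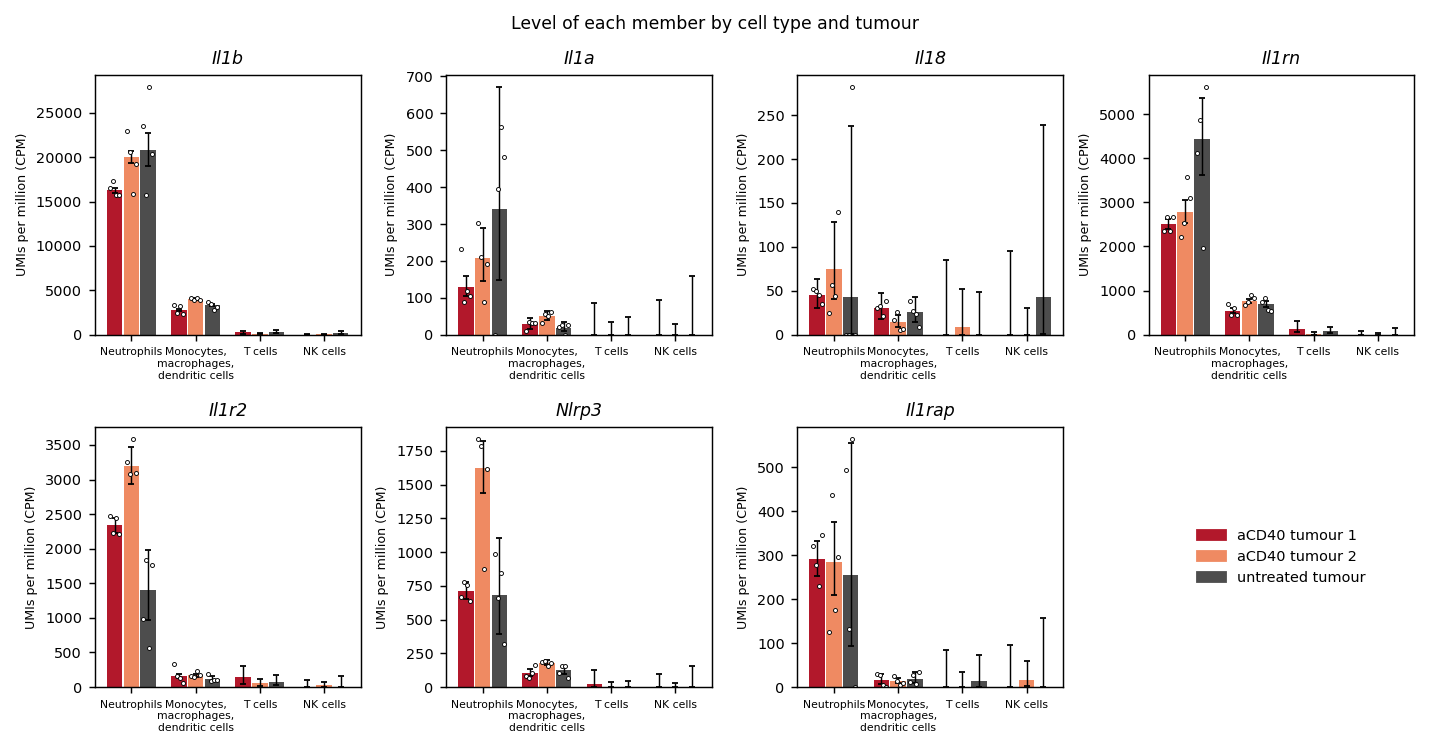
Level of each member (UMIs per 1000000 UMIs of the cell type, linear axes that differ between genes) in 4 cell types, with aCD40 tumours 1 and 2 left of the untreated tumour. Bars are the tumours' summed counts with exact Poisson 95% intervals and open points, drawn for neutrophils and other myeloid cells, are libraries; Il1r2 in neutrophils stands at 2336 and 3193 CPM in aCD40 tumours and 1406 CPM in the untreated tumour.

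Nlrp3 differed between the aCD40 tumours. The sensor had 711 CPM in neutrophils of aCD40 tumour 1 and 1622 CPM in those of aCD40 tumour 2, against 682 CPM (390 to 1107) in the untreated tumour. Tumour 2 was thus higher than both others, while tumour 1 lay inside the untreated interval, and libraries overlapped. Among other myeloid cells Nlrp3 had 102 and 181 CPM in aCD40 tumours and 123 CPM in the untreated tumour. Il1rap, the accessory chain that the IL1R1, IL-33 and IL-36 receptors share, had 290 and 284 CPM in aCD40 neutrophils and 256 CPM (6 UMIs) in untreated neutrophils. Other myeloid cells held little of it, with 15.1 and 13.7 CPM in aCD40 tumours and 19.3 CPM in the untreated tumour (9, 20 and 11 UMIs). NK cells held no UMI of Il1a, Il1rn or Nlrp3 in any tumour, which at 3 counts over their 197 cells allows up to 16.3 CPM.

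No member passed the test of treatment in either class. Sums per tumour were compared with edgeR's quasi-likelihood test, Benjamini-Hochberg adjusted over all genes tested, with a threshold of 0.05 and the tumour as the replicate. In neutrophils 0 of 7 members were called against 0.442% of 2713 genes. For other myeloid cells 0 of 7 were called against 0.409% of 7099 genes. At an unadjusted p below 0.05 these counts were 1 of 7 (Il1r2) and 0 of 7, beside 295 of 2713 and 653 of 7099 genes. DESeq2 called 0 members in each class. With 1 untreated tumour and 1 residual degree of freedom, the spread of the untreated group is taken from the aCD40 pair and from the other genes.

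Fitted changes were widest for Il1r2 and Nlrp3 in neutrophils. Il1r2 had a log2 fold change of 1.56 ± 0.74 (SE; unadjusted p = 0.0347, adjusted p = 0.440 by edgeR), and both aCD40 tumours were higher. Nlrp3 had 1.37 ± 0.74 (adjusted p = 0.473). The other fitted values in neutrophils were 0.39 ± 0.76 for Il1b, -0.47 ± 0.76 for Il1a, 0.97 ± 1.57 for Il18, -0.16 ± 0.67 for Il1rn and 0.74 ± 0.82 for Il1rap. TMM scaling set the median of all neutrophil genes at 0.29 on this scale, and plain library sizes set it at -0.28, so changes are read against it: relative to the median Il1r2 stood at 1.27, Nlrp3 at 1.08, Il1b at 0.10 and Il1rn at -0.45. With plain library sizes Il1b turned to -0.20 (adjusted p = 0.915) and Il1r2 was 0.97 (adjusted p = 0.593). The sign of the Il1b value in neutrophils is therefore not settled by these data, and CPM above are on the plain scale. The Il1rn value was -0.75 with plain library sizes, and it turned to 0.0822 with no filter on low counts and to 0.11 without pool 1. In the pools that held both aCD40 tumour 1 and the untreated tumour, Il1r2 had 1.67 (pool 1) and 1.93 (pool 2), with no test. The medians of all genes in those fits were 2.43 and 3.23, and relative to them Il1r2 was at -0.76 and -1.30. Those fits kept every gene with at least 1 UMI (7793 and 8076 genes), not the 2713 that passed the filter. With no filter the fit of both aCD40 tumours likewise had a median of 1.93. The relative values of the pools are therefore not comparable with the 1.27 above. Pools 3 and 4 held aCD40 tumour 2 alone.

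Fitted values in other myeloid cells were 0.06 ± 0.47 for Il1b, 1.14 ± 0.59 for Il1a (adjusted p = 0.608), -0.33 ± 0.58 for Il18, -0.04 ± 0.42 for Il1rn, 0.46 ± 0.40 for Il1r2, 0.27 ± 0.47 for Nlrp3 and -0.39 ± 0.73 for Il1rap, beside a median of 0.02 over all genes. The Il1a value was -0.0147 within pool 1 and 0.49 without aCD40 tumour 2, neither with a test. The class held a cluster led by neutrophil genes (2 and 73 cells in aCD40 tumours, 8 untreated) and one led by T cell genes (2 and 45 cells in aCD40 tumours, 262 untreated). Without these clusters Il1a had 1.09, Il1r2 0.43 and Nlrp3 0.31, and Il1b turned to -0.0139 (adjusted p = 0.996). Cells that also carried 3 or more UMIs of another type's markers made up 17.0% and 6.54% of the class in aCD40 tumours and 1.14% in the untreated tumour; without them Il1rn turned to 0.10 (adjusted p = 0.924). Neutrophil markers in this class (7, 8 and 8 of 8 detected) were also higher in both aCD40 tumours, with the sums given above, and their part in the fitted values of members was not tested beyond these fits.

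The treatment effect was compared between the classes as an interaction with the tumour as a block. Of the members 0 of 7 passed, against 0.0779% of 7700 genes, while 2 of 7 (Il1r2 and Nlrp3) had an unadjusted p below 0.05, beside 430 of 7700 genes. The difference, neutrophils minus other myeloid cells, was 1.84 ± 0.79 for Il1r2 (adjusted p = 0.841) and 1.82 ± 0.82 for Nlrp3 (adjusted p = 0.852). The median of all genes in that fit was 1.83, and relative to it Il1r2 stood at 0.01 and Nlrp3 at -0.01. The 7700 genes included many too low to be tested in neutrophils alone, where 2713 passed the filter. Among them were Pycard and Nek7, with 0 UMIs in untreated neutrophils and differences of 8.07 ± 4.49 and 8.01 ± 4.89. The part of such genes in the median was not tested, so it is not a plain reference for Il1r2 and Nlrp3.

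**Figure D2:**
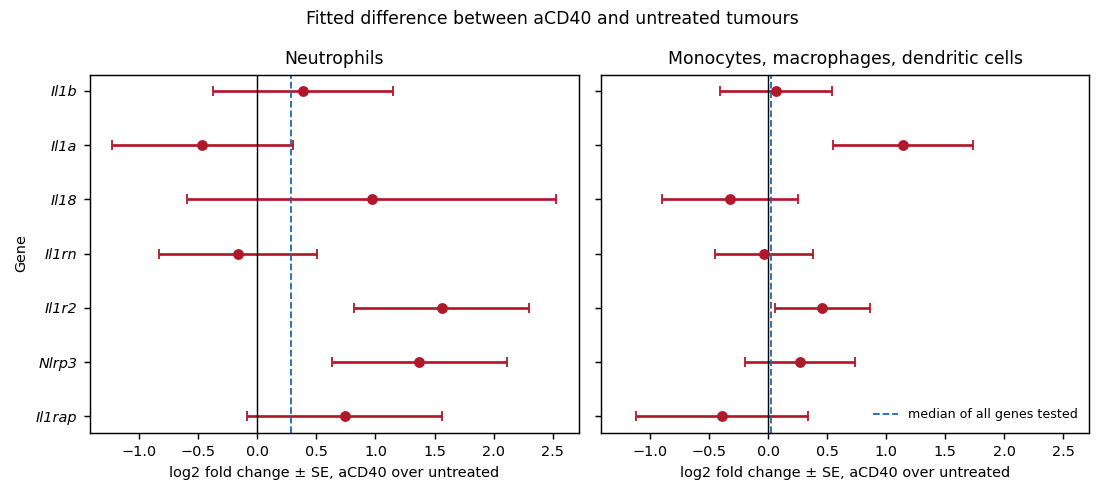
Log2 fold change of each member, aCD40 over untreated tumours, with its SE, in neutrophils (left) and other myeloid cells (right); the dashed line is the median of all genes tested. Il1r2 in neutrophils (1.56 ± 0.74) and Il1a in other myeloid cells (1.14 ± 0.59) lie farthest to the right in their panels, and none passed the threshold.

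The cells that held the pathway's RNA differed between the tumours, as did the number of neutrophils. Neutrophils held 87.4% and 37.2% of the Il1b UMIs of aCD40 tumours 1 and 2, and 20.1% of those of the untreated tumour (exact binomial intervals 86.8 to 88.0%, 36.3 to 38.2% and 18.5 to 21.7%). They held 51.2% and 9.27% of all UMIs in aCD40 tumours and 3.32% in the untreated tumour. For the decoy receptor Il1r2 the neutrophil share was 94.3% and 68.4% in aCD40 tumours and 30.6% in the untreated tumour, and for Il1rap it was 95.8% and 69.0% against 33.3% untreated. Nlrp3 had 89.1% and 51.6% in aCD40 tumours against 18.6%, and Il1rn 84.5% and 29.9% against 20.5%. Il1a was 84.4% neutrophil in aCD40 tumour 1 and 32.7% in tumour 2, against 42.1% (interval 20.3 to 66.5%) in the untreated tumour, so that tumour 2 was below it, within the counting error.

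Over neutrophils, other myeloid cells, T cells and NK cells together, Il1b stood at 9538 and 5005 CPM in aCD40 tumours and at 3488 CPM in the untreated tumour, 2.73-fold and 1.43-fold higher. Il1r2 stood at 1269 and 434 CPM in aCD40 tumours against 156 CPM, 8.15-fold and 2.78-fold higher. When each tumour's cell types were weighted as in the untreated tumour, the Il1b folds were 0.823 and 1.14 and the Il1r2 folds 1.44 and 1.63. The same weighting gave 0.747 and 1.00 for Il1rn (2.09 and 1.19 as observed), 0.893 and 1.64 for Nlrp3 (3.30 and 2.36 as observed) and 0.857 and 0.827 for Il1rap (5.98 and 1.47 as observed). These folds set 1 tumour against 1 and carry no test.

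**Figure D3:**
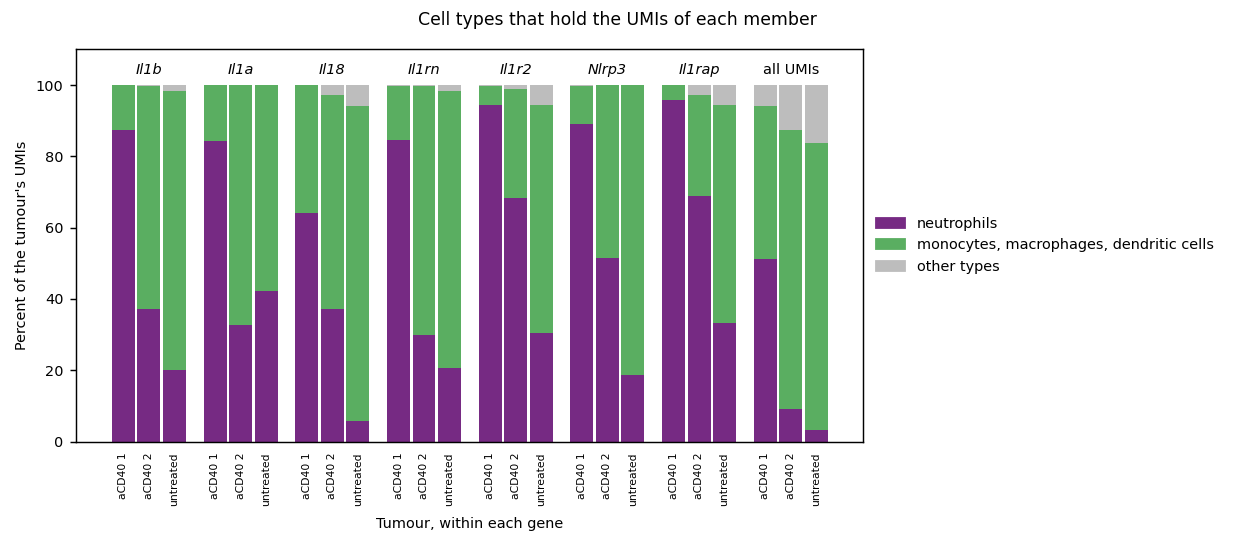
Percent of each tumour's UMIs of a member, and of all its UMIs, that lay in neutrophils, in other myeloid cells or in all other types; within a gene the aCD40 tumours stand left of the untreated tumour. Neutrophils hold 87.4% and 37.2% of Il1b in aCD40 tumours and 20.1% in the untreated tumour.

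Ligand and antagonist were ordered differently across the annotated neutrophil subsets (N1a, N1b, N2, N3 and N5; N4 held 4 cells). N5 had the lowest Il1b and the highest Il1rn of these subsets in every tumour that held them. Il1b in N5 was 7627 and 10305 CPM in aCD40 tumours and 6287 CPM in the untreated tumour. In N2 it was 20355 and 24978 CPM in aCD40 tumours against 25108 CPM, and in N3 19594 and 29335 CPM against 27094 CPM. Il1rn in N5 reached 6256 and 4466 CPM in aCD40 tumours and 7738 CPM in the untreated tumour, and in N3 3389 and 2580 CPM against 3912 CPM. N1a had the least Il1rn, at 756 and 944 CPM in aCD40 tumours, and 0 of the 49 untreated neutrophils were N1a. The subsets were made from genes of these cells, members possibly among them, so these orders are descriptions without a test.

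Il1r2 was highest in N2 of aCD40 tumour 1 (2999 CPM) and about equally high in N2 and N3 of aCD40 tumour 2 (4092 and 4153 CPM, with overlapping intervals), against values of 2430 and 1449 CPM in N2 and N3 of the untreated tumour. It was lowest in N5, at 1290 and 1699 CPM in aCD40 tumours and 322 CPM (2 UMIs) in the untreated tumour. Nlrp3 peaked in N3 of both aCD40 tumours, at 1292 and 2845 CPM against 869 CPM (6 UMIs) untreated, and was lowest in N1a, at 358 and 367 CPM in aCD40 tumours. Most Il1a UMIs lay in N3 and N5, with 47 and 28 of 92 in aCD40 tumour 1, 14 and 18 of 36 in aCD40 tumour 2, and 2 and 3 of 8 in the untreated tumour. Il18 was highest in N3, at 140 and 141 CPM in aCD40 tumours (15 and 8 UMIs) and 145 CPM (1 UMI) untreated. Il1rap ranged over 225 to 328 CPM across the 5 subsets in aCD40 tumour 1, with overlapping intervals. Untreated subsets held 15 cells or fewer.

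**Figure D4:**
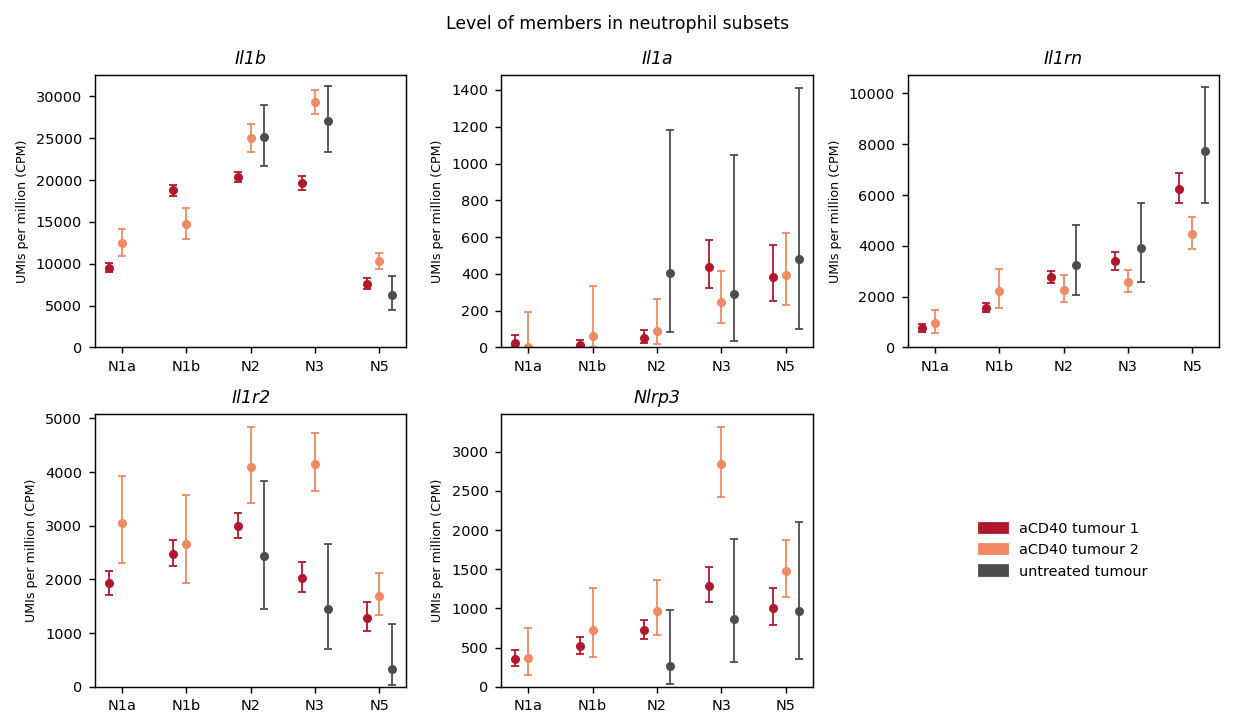
Level of 5 members (CPM, linear axes) in neutrophil subsets, as points with exact Poisson 95% intervals, aCD40 tumours left of the untreated tumour; subsets with under 10 cells in a tumour are not drawn. Il1b is lowest and Il1rn highest in N5 of all 3 tumours.

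Set against the ligand in the same cells, the brakes give ratios that carry no scaling between tumours. Neutrophils held 14.4 and 15.9 Il1r2 UMIs per 100 Il1b UMIs in aCD40 tumours (intervals 13.6 to 15.1 and 14.5 to 17.4) and 6.75 (4.59 to 9.61) in the untreated tumour. Both aCD40 values were higher, and the 8 aCD40 libraries (12.8 to 22.5) did not overlap the 4 untreated ones (2.02 to 11.7). The share of all genes whose ratio to Il1b separates in this way was not computed. On the CPM scale 7.30% of neutrophil genes had every aCD40 library above every untreated library. The untreated libraries held 2 to 14 Il1r2 UMIs each, and the 4 libraries of 1 tumour count as 1 replicate. For Il1rn the ratio was 15.4 and 13.9 in aCD40 tumours and 21.3 (17.0 to 26.3) in the untreated tumour. Both aCD40 values were lower, while libraries overlapped (9.65 to 22.5 in aCD40 tumours, 7.07 to 30.8 untreated). Within pool 1 Il1r2 had 13.8 in aCD40 tumour 1 and 7.60 in the untreated tumour, and within pool 2 14.8 and 5.75. The Il1rn ratio was 14.8 and 23.6 within pool 1, and 15.9 and 18.6 within pool 2. An exact permutation test of 2 tumours against 1 cannot reach 0.05, and none was made.

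The higher Il1r2 ratio was also seen inside subsets. It was 14.7 and 16.4 in N2 of aCD40 tumours against 9.68 untreated, 10.4 and 14.2 in N3 against 5.35, and 16.9 and 16.5 in N5 against 5.13 (0.600 to 19.8), with an interval that overlapped both aCD40 tumours in N2 and N5 and only tumour 1 in N3. N1a had Il1r2 ratios of 20.2 and 24.5 in aCD40 tumours (128 and 16 cells), and the untreated tumour held no N1a cell. In N1b they were 13.2 and 18.0 against 5.17 (1.04 to 15.9, 4 cells) untreated. The part of the subset mix in the ratio of all neutrophils was not tested. The Il1rn ratio differed mostly between subsets. N5 held 82.0 and 43.3 Il1rn UMIs per 100 Il1b UMIs in aCD40 tumours and 123 (79.0 to 193) in the untreated tumour, whereas N2 held 13.6 and 9.10 against 12.9 and N3 17.3 and 8.80 against 14.4. Other myeloid cells had an Il1rn ratio of 19.3 in each aCD40 tumour and 20.7 in the untreated tumour, with overlapping intervals. Their Il1r2 ratio was 5.66 and 4.21 in aCD40 tumours and 3.63 untreated; in aCD40 tumour 1 it was 7.99 within pool 1 and 3.67 within pool 2.

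**Figure D5:**
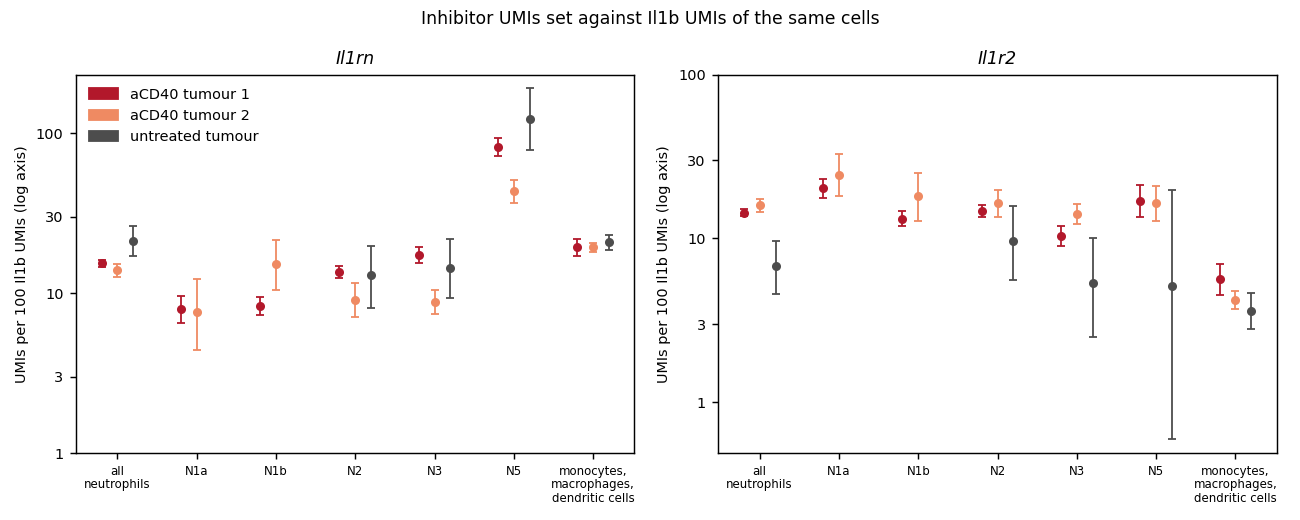
Il1rn (left) and Il1r2 (right) UMIs per 100 Il1b UMIs of the same cells, on log axes, in all neutrophils, in their subsets and in other myeloid cells, with exact 95% intervals; aCD40 tumours stand left of the untreated tumour. N5 stands apart for Il1rn (82.0 and 43.3 in aCD40 tumours, 123 untreated), and Il1r2 in all neutrophils is 14.4 and 15.9 in aCD40 tumours and 6.75 in the untreated tumour.

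Brake and ligand UMIs were found in the same cells, and neutrophils without an Il1b UMI also held brakes. After thinning to 300 UMIs, an Il1r2 UMI was found in 46.5% and 56.6% of neutrophils with an Il1b UMI in aCD40 tumours and in 33.3% of those in the untreated tumour (12 of 36 cells). Among neutrophils without an Il1b UMI it was found in 24 of 60 and 6 of 18 cells in aCD40 tumours and in 1 of 5 in the untreated tumour. Il1rn was found in 39.7% and 50.5% of Il1b-positive neutrophils of aCD40 tumours and 55.6% of untreated ones. Without an Il1b UMI, Il1rn was found in 30 of 60 and 6 of 18 neutrophils in aCD40 tumours and in 3 of 5 in the untreated tumour, a higher share than with Il1b in aCD40 tumour 1 and in the untreated tumour. In N5 of aCD40 tumour 1, Il1rn without Il1b was seen in 23 of 88 cells. Other myeloid cells of aCD40 tumour 2 with an Il1b UMI had Il1r2 in 7.19% and those without in 1.44%, whereas the shares in the untreated tumour were 4.49% and 3.01%.

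Other myeloid cells were split into 12 clusters without use of the member genes. Over all tumours Il1b was highest in a cluster led by Ifitm1, Ptgfrn, Vegfa and Cxcl1 (6424 and 7412 CPM in aCD40 tumours, 4364 CPM untreated) and in the neutrophil-like cluster (6985 CPM in aCD40 tumour 2), while the highest untreated level was in a cluster led by Nos2, Mmp12 and Inhba (5424 and 4086 CPM in aCD40 tumours, 6749 CPM untreated). It was lower in the monocyte-like cluster led by S100a8 and Chil3 (1070 CPM in aCD40 tumour 1, which held 116 of its 121 cells) and in the macrophage-like cluster led by Cx3cr1, Fcrls and Ms4a7 (1408 and 796 CPM in aCD40 tumours, 2412 CPM untreated). A cluster led by Gdf15, Nr1h3 and Lpl carried ligand and antagonist, with little decoy receptor in the aCD40 tumours. It had 4140 and 4228 CPM of Il1b in aCD40 tumours and 4437 CPM untreated, 699 and 1331 CPM of Il1rn against 1790 CPM, but 38.8 and 16.8 CPM of Il1r2 (5 and 6 UMIs) in aCD40 tumours and 389 CPM (5 UMIs) untreated. Per 100 Il1b UMIs this was 0.938 and 0.397 Il1r2 UMIs in aCD40 tumours and 8.77 in the untreated tumour (95% interval 2.74 to 21.7, counting error only). This cluster held 46 of the 74 Il1a UMIs of other myeloid cells in aCD40 tumour 2. The mature dendritic cell-like cluster (Fscn1, Ccr7, Ccl22) held 0 Nlrp3 UMIs in 178 cells and 140854 UMIs, which allows up to 21.3 CPM, beside 412 CPM of Il1rn. Several clusters came mostly from 1 tumour and were not compared by size.

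The wider pathway was read from 46 further genes, of which 40 were counted in the files. In neutrophils 20 could be tested and 0 passed, with 17 fitted above 0, beside 1575 of 2713 genes, and a median of 0.93, beside 0.29 over all genes. Of the 17, Il18rap, Tollip, Irak3, Gsdmd, Casp8 and Cxcl1 each rested on 1 UMI in untreated neutrophils. Among other myeloid cells 27 could be tested and 0 passed, with 15 above and 12 below 0 and a median of 0.33, beside 0.02. At an unadjusted p below 0.05 the counts were 1 of 20 and 7 of 27, beside 295 of 2713 and 653 of 7099 genes. Among other ligands, Il1f9 (interleukin-36 gamma) was a neutrophil transcript, with 710 and 545 CPM in aCD40 tumours and 298 CPM (7 UMIs) untreated and a log2 fold change of 1.64 ± 0.81 (adjusted p = 0.440); other myeloid cells held 0 and 9 UMIs of it in aCD40 tumours and 2 untreated. Il1f6 (interleukin-36 alpha) had 3 UMIs, all in neutrophils of aCD40 tumour 1.

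Of the receptors, Il1r1, the signalling receptor itself, had 0 UMIs in neutrophils and 1 UMI in other myeloid cells over all tumours. Il18rap, a chain of the interleukin-18 receptor, had 107 and 133 CPM in aCD40 neutrophils and 42.6 CPM (1 UMI) untreated. Il1rl2, the interleukin-36 receptor, had 4 UMIs in neutrophils and 8 in other myeloid cells. Of the other inhibitors, Il18bp, which traps interleukin-18, had 43.6 and 89.4 CPM in other myeloid cells of aCD40 tumours and 102 CPM untreated (-0.51 ± 0.49, adjusted p = 0.819). Tollip, an adaptor that dampens receptor signalling, had 60.4 and 98.3 CPM there against 47.4 CPM (0.82 ± 0.48, adjusted p = 0.670). In neutrophils Il18bp was instead fitted above 0 (1.02 ± 1.12), with 109 and 127 CPM in aCD40 tumours and 85.2 CPM (2 UMIs) untreated. Neutrophils held 91.2 and 104 CPM of Tollip in aCD40 tumours and 42.6 CPM (1 UMI) untreated (1.73 ± 1.38).

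For inflammasome and processing genes, 7 of 11 tested in other myeloid cells were fitted below 0, with a median of -0.49. The smallest p belonged to a gene fitted above 0, Casp8, an initiator caspase of apoptosis, at 1.83 ± 0.47 (unadjusted p = 0.00122, adjusted p = 0.174). Mefv, which encodes the inflammasome sensor pyrin, was at 0.99 ± 0.44 (adjusted p = 0.516). Nek7 was at -1.16 ± 0.41 and Casp4 at -1.17 ± 0.53, both fitted below 0. Casp8, Mefv, Nek7 and Casp4 were named after their values were seen. Pycard, the adaptor that links NLRP3 to caspase-1, had 247 and 164 CPM there in aCD40 tumours and 286 CPM untreated (-0.49 ± 0.38, adjusted p = 0.770). Txnip, a thioredoxin-binding protein reported to bind NLRP3, had 554 and 545 CPM in aCD40 neutrophils and 1790 CPM untreated (-1.13 ± 0.64, adjusted p = 0.496), and 168 and 201 CPM in other myeloid cells against 349 CPM (-0.88 ± 0.38, adjusted p = 0.495). Both aCD40 tumours were lower in both classes. Of the signalling genes, Myd88 was at -0.17 ± 0.39 and Irak2 was at 0.49 ± 0.45 in other myeloid cells and at 0.39 ± 0.84 and 0.59 ± 0.78 in neutrophils.

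Known targets of interleukin-1 signalling were fitted above 0 for 7 of 7 genes tested in other myeloid cells (median 1.33) and for 6 of 6 in neutrophils (median 0.86), and none passed. Of all genes tested, 3669 of 7099 in other myeloid cells and 1575 of 2713 in neutrophils were fitted above 0. The aCD40 tumours differed on the CPM scale. In neutrophils of aCD40 tumour 1, Ptgs2 (2048 against 3920 CPM), Nfkbiz (948 against 1108), Tnfaip3 (511 against 554), Cxcl2 and Nfkbia were below untreated. Only Cxcl1 was higher there (54.7 against 42.6 CPM, 1 UMI untreated). In other myeloid cells of that tumour Nfkbiz was lower (67.1 against 125 CPM). Ptgs2 was about equal there (260 against 256 CPM, and 248 against 260 after TMM scaling). The other targets were higher, although Cxcl1 and Il6 rested on 2 and 5 untreated UMIs. Cxcl2, a chemokine for neutrophils, had 1932 and 4487 CPM in other myeloid cells of aCD40 tumours and 591 CPM untreated, a log2 fold change of 2.50 ± 0.65 (unadjusted p = 0.00340, adjusted p = 0.241). In neutrophils it had 23252 and 38959 CPM against 25098 CPM (0.90 ± 0.81, adjusted p = 0.692). Nfkbia, an inhibitor of NF-kB, had 1507 and 2916 CPM in other myeloid cells against 1142 CPM (1.01 ± 0.53, adjusted p = 0.618), and 5410 and 9114 CPM in neutrophils against 10525 CPM (0.06 ± 0.71). The neutrophil CPM of Nfkbia was thus lower in both aCD40 tumours, and its fitted value, above 0 only after TMM scaling, lay below the median of all genes (0.29). These genes also respond to other stimuli.

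Genes whose level most resembled that of a member were ranked by Pearson's r of log2(CPM + 10) over 18 sums of tumour by cell type or neutrophil subset with at least 20 cells, among 3068 genes with at least 200 UMIs. For Il1b these were Cd14, a coreceptor for lipopolysaccharide (r = 0.985), Fcgr4 (0.972) and Ccr1 (0.968). For Il1rn they were Trib1 (0.962), Ccr1 (0.954) and Isg15 (0.949), and for Il1r2 G0s2 (0.974), Slfn1 (0.972) and Oasl2 (0.965). Nlrp3 was most like Ptgs2, the inducible cyclooxygenase (0.982), Thbs1 (0.969) and Plaur (0.969). Il1a was closest to Sh2b2 (0.963), Tnfrsf23 (0.961) and Ier3 (0.954), and Il1rap to Acod1 (0.982), Stfa2l1 (0.971) and Slfn4 (0.969). The sums share libraries and depth, and they include both myeloid and lymphoid cells.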

How the data were processed

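The authors deposited whole-number UMI counts per cell and gene for 4 sequencing pools, not normalised, with a table of pool, library, animal, condition and cell type. The submitters' processing notes name bcl2fastq, STAR and GRCm38; tool versions, the counting step, its use of strand and any doublet removal were not given in the sources used here. All deposited cells were kept, without a doublet caller. Levels are UMIs summed per tumour and cell type, per 1000000 UMIs, with exact 95% intervals for counting error. Treatment was tested on these sums with edgeR 4.0.16 in R 4.3.3 (TMM, filterByExpr, robust quasi-likelihood F test, Benjamini-Hochberg over all genes tested); DESeq2 1.42.0 was an alternative. Prior degrees of freedom were infinite in neutrophils and 15.9 in other myeloid cells, so p-values rest on a variance shared over genes. Clusters came from scanpy 1.11.5 (1500 variable genes, 20 components, 15 neighbours, resolution 1). Alternatives were plain library sizes, no filter, thinning to 300 UMIs, cells with second-type markers left out, pools, tumours or clusters left out, and within-pool values. Pathway genes to be named were those that passed, and the 2 with the most UMIs per group. None passed. Il1r1, Casp8, Mefv, Nek7, Casp4, Ptgs2, Nfkbiz, Tnfaip3 and Cxcl1 were named outside this rule. The members, lists and markers were chosen with earlier results of these data known.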

Additional observations from a re-analysis of the deposited data

How the results depend on the processing

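No member was called under any alternative with a test. The number of genes called moved. In neutrophils it was 12, against 7 after thinning, 7 with no filter, 2 without subsets N1a and N1b, and 3 to 25 when a sequencing pool was left out. In other myeloid cells it was 29, against 12 with DESeq2, 56 after thinning, 141 with no filter, 89 with plain library sizes, 49 without cells with second-type markers, 5 without the mature dendritic cell-like cluster, 6 without the neutrophil-like and T cell-like clusters (chosen after seeing the data) and 1 to 27 without a pool. For the difference between the classes it was 6, against 1 after thinning, 1 with no filter and 0 to 28 without a pool. Of 252 member values under alternatives, those within pools or without a tumour had no test and were not counted for reversals. With them included, Il1rn in neutrophils kept its sign in 8 of 14 alternatives. In other myeloid cells Il1b kept its sign in 10 of 15 (-0.46 within pool 1 to 0.44 without aCD40 tumour 1) and Nlrp3 in 13 of 15 (lowest -0.89, within pool 1). Among the values with a test, 14 reversed their sign, all uncalled, and the causes were not tested. In neutrophils these were Il1b with plain library sizes (-0.20), Il1rn with no filter (0.0822), and, without a pool, Il1a (-0.88 to 0.35), Il18 (-0.0844 to 6.36) and Il1rn (-0.33 to 0.11). In other myeloid cells they were Il1b without the neutrophil-like and T cell-like clusters (-0.0139) and without a pool or tumour (-0.0519 to 0.44), and Il1rn with no filter (0.00611), without second-type cells (0.10) and without a pool or tumour (-0.43 to 0.33). For the difference the reversed values were Il1b (-0.20) and Il1rn (-0.64) with plain library sizes, Il1rn without second-type cells (-0.0529) and Il1a without a pool (-2.29 to 0.56). Il1r2 and Nlrp3 in neutrophils stayed positive in 14 of 14 alternatives (0.97 to 1.96 and 0.76 to 2.03), with adjusted p of 0.298 to 0.879 and 0.472 to 0.879. Relative to the median of all genes they ran from -1.30 to 1.35 and from -1.66 to 1.42. They were below this median with no filter, within pools and without aCD40 tumour 2. Those fits kept every gene with at least 1 UMI, so their medians are not comparable with that of the main fit. Leaving out aCD40 tumours 1 and 2 in turn gave Il1r2 1.96 and 1.60. Of the ratios in other myeloid cells, Il1r2 per 100 Il1b in aCD40 tumour 1 was 7.99 within pool 1 and 3.67 within pool 2 (3.67 to 7.99 without a pool), and Il1rn in aCD40 tumour 2 was 18.0 to 20.1 without a pool. No paired analysis was possible because pools are technical parts of the same tumours: pools 1 and 2 held aCD40 tumour 1 and the untreated tumour, and pools 3 and 4 held aCD40 tumour 2 alone. The 49 untreated neutrophils (23468 UMIs) set the precision of every neutrophil comparison.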

Other observations

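Il1b UMIs were spread unevenly over cells. The 70 and 22 neutrophils of aCD40 tumours and 5 of the untreated tumour with the most Il1b UMIs, 10% of cells, held 26.9% and 31.9% of them in aCD40 tumours and 30.5% in the untreated tumour. The same share of other myeloid cells held 47.2% and 48.2% in aCD40 tumours and 43.6% in the untreated tumour. A neutrophil held a median of 13 and 11 Il1b UMIs in aCD40 tumours and 6 in the untreated tumour, at median depths of 926, 668 and 435 UMIs. The highest count in a cell was 70 and 91 in neutrophils of aCD40 tumours and 32 in untreated ones.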
